A study of Mus musculus with 4 samples.

Results

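Single-nucleus RNA-seq was used to describe 2029 astrocyte nuclei of the mouse brain in which UMIs (unique molecular identifiers, each counting 1 captured transcript) of Agt and Slc6a11 outnumbered those of Mfge8 and Gldc. They were selected on these measured values out of 78728 nuclei. A nucleus was kept when Slc1a3, Aqp4, Gja1, Ntsr2 and Acsbg1 summed to at least 5 UMIs, Agt plus Slc6a11 exceeded Mfge8 plus Gldc, Myoc was 0, the neuronal genes Rbfox3, Slc17a7, Slc17a6, Gad1 and Gad2 summed to at most 1, and Mog, Csf1r, Cldn5 and Pdgfra summed to at most 1. The working name for such nuclei is non-telencephalic astrocytes, that is, astrocytes of brain regions other than cortex, hippocampus, striatum and olfactory bulb. Because that name did not hold in every library, they are called Agt/Slc6a11 nuclei here, and the 1040 nuclei that passed the same limits with Mfge8 plus Gldc ahead are called Mfge8/Gldc nuclei.

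The tissue came from male C57BL/6J mice aged 8 weeks injected 4 weeks earlier, through the cisterna magna, with a viral vector of the AAV (adeno-associated virus) type. AAV-VEGF-C encoded mouse VEGF-C in full length, a lymphatic growth factor of the vascular endothelial growth factor family, and AAV-CTRL delivered a soluble piece of VEGF receptor 3 that does not bind VEGF-C, fused to an immunoglobulin tail, so both groups made a secreted protein. Tissue of 5 mice was pooled for each virus and sampled under a cortex label and a striatum label, which gave 4 groups with 1 library each. The same mice fed both region labels of a virus, and no label separates the animals of a pool. Where 4 values are given, they run from the cortex to the striatum label, with AAV-CTRL before AAV-VEGF-C within each. CPM is the UMIs of a gene summed over the nuclei of a class and scaled to a total of 1000000.

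Astrocytes clear transmitters from the synaptic cleft, buffer potassium, move water at their endfeet on vessels and supply neurons with metabolites. They differ between brain regions, because they keep part of the transcription factor code of the embryonic territory they arose from. Astrocytes of thalamus, hypothalamus, midbrain and hindbrain are known for higher expression of Agt, which encodes angiotensinogen, and of Slc6a11, which encodes the GABA transporter GAT3. Astrocytes of the telencephalon are known for Mfge8, a secreted protein that tags material for phagocytosis, and for Gldc, an enzyme of glycine cleavage.

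The genes that define the class lie on different chromosomes. On GRCm38 the Agt gene (ENSMUSG00000031980) lies on chromosome 8 from 124556534 to 124569706 on the minus strand, and Slc6a11 (ENSMUSG00000030307) on chromosome 6 from 114131241 to 114249952 on the plus strand. Their promoters are shown because the class rests on transcripts of this pair. The sequences are those of RefSeq on GRCm38.p6 at chr8:124569657-124569956 (minus strand) and chr6:114130991-114131290 (plus strand), from 250 bases before the start site to 50 after it, 5′ to 3′, with the letters TATAAA, searched on both strands, in capitals.
Agt: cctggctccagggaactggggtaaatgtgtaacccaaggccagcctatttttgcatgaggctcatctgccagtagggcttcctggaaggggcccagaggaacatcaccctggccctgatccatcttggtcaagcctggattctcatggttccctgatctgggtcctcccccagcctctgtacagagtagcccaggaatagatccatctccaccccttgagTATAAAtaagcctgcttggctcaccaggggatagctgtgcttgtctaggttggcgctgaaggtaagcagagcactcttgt
Slc6a11: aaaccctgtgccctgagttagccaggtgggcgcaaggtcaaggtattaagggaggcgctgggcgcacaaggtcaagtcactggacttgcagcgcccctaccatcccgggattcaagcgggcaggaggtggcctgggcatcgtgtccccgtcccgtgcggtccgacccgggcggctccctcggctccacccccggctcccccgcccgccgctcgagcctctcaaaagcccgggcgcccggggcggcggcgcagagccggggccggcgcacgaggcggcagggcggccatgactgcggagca
The Agt promoter held 1 match and a GC content of 54.7%, and the Slc6a11 promoter held no match and a GC content of 72.3%. The letters occur in 13.6% of 32851 mouse promoters of the same length, and a match is a description only.

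The libraries held 121, 136, 1040 and 732 Agt/Slc6a11 nuclei. They made up 0.705%, 0.668%, 4.38% and 4.19% of all nuclei of their library. Of the Agt/Slc6a11 and Mfge8/Gldc nuclei together they were 27.4% (95% exact Clopper-Pearson interval 23.3 to 31.9), 21.2% (18.1 to 24.6), 87.0% (85.0 to 88.9) and 92.5% (90.5 to 94.3). Both striatum-labelled libraries were thus far above both cortex-labelled libraries, and the intervals do not overlap. These intervals, and all others below, cover counting error only. Thinning every nucleus to 1000 UMIs gave 28.9%, 24.1%, 81.2% and 88.6%, with 642, 709, 1537 and 425 nuclei of the libraries left out as shallower. Fewer nuclei of a class and less RNA per nucleus cannot be told apart in summed counts, so levels below are per UMI of the class.

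**Figure D1:**
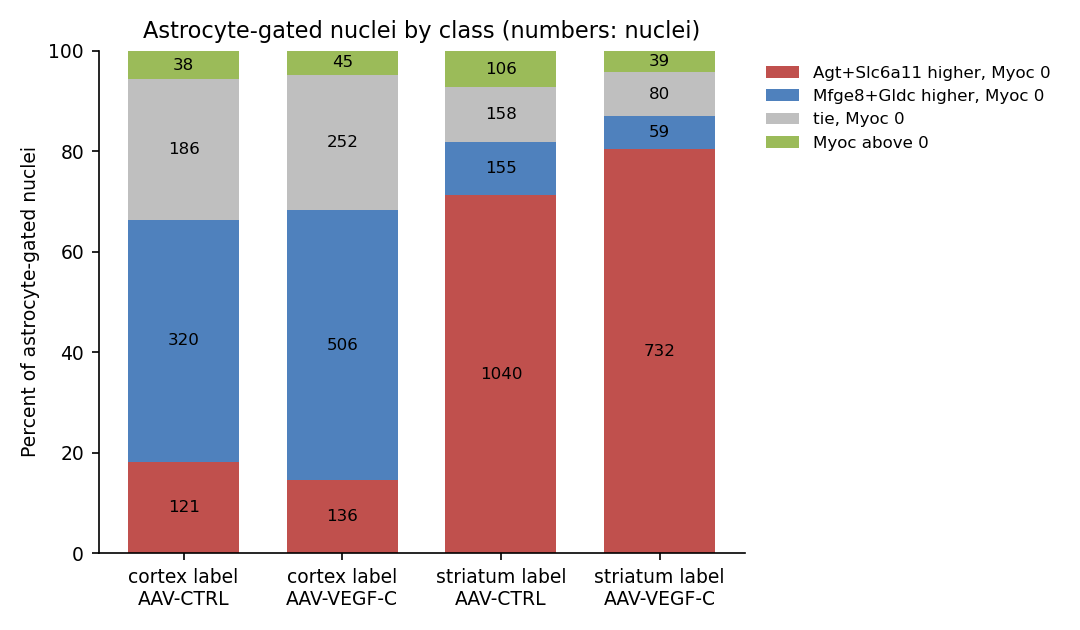
Astrocyte-gated nuclei of each library by class, as percent of all nuclei that passed the astrocyte sum and the limits on neuronal and other genes; numbers in the bars are nuclei. Agt/Slc6a11 nuclei (red) are 121 and 136 in the cortex-labelled libraries and 1040 and 732 in the striatum-labelled ones.

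The class was not the same in its own defining genes across the libraries. These values chose the nuclei and are given as a description. Agt was at 147, 157, 576 and 595 CPM and Slc6a11 at 779, 808, 1768 and 1751 CPM in Agt/Slc6a11 nuclei. Both genes were detected together in 15.7%, 15.4%, 59.5% and 65.6% of them, and Slc6a11 alone in 78.5%, 77.9%, 37.1% and 32.1%. In the cortex-labelled libraries most of the nuclei were therefore selected on Slc6a11 without any Agt UMI. The margin of Agt plus Slc6a11 over Mfge8 plus Gldc was a median of 1, 1, 4 and 5 UMIs, with highest values of 8, 8, 29 and 20. A margin of exactly 1 UMI, just inside the limit, was held by 62.8%, 61.0%, 13.0% and 11.9% of the nuclei. Just outside it lay 186, 252, 158 and 80 nuclei with equal sums, of which 124, 148, 97 and 40 had no UMI of any of the 4 genes. At the limit of the astrocyte sum, 19, 26, 233 and 143 nuclei had exactly 5 UMIs, while 23, 21, 229 and 142 nuclei met all else with 4.

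The nuclei were shallow, and a few stood apart. The libraries held 17168, 20370, 23724 and 17466 nuclei with 63165470 to 78332657 UMIs in all, and Agt/Slc6a11 nuclei contributed 279687, 324417, 2265621 and 1810839 of these. Their median was 1998, 1919, 1948 and 2254 UMIs per nucleus. Single nuclei reached 13622, 31311, 16938 and 30383 UMIs, and 1, 2, 2 and 4 nuclei had more than 10000. Scrublet called 6, 2, 64 and 16 of them doublets, droplets that hold more than 1 nucleus. Nuclei with at least 10 UMIs of 7 ependymal markers numbered 4, 3, 7 and 8. Between any pair of libraries 76 to 118 cell barcodes were shared, and none of these belonged to Agt/Slc6a11 nuclei in both. Striatal genes were lower under the striatum label: Ppp1r1b, the signalling protein of striatal projection neurons, was at 62.6, 74.8, 18.1 and 18.1 CPM over whole libraries, and Drd1, a dopamine receptor gene of the same cells, at 27.0, 34.3, 11.1 and 9.97. Tcf7l2, a transcription factor abundant in thalamus, stood at 44.9, 42.6, 297 and 333 CPM.

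Several transcription factors of the telencephalon were higher in Agt/Slc6a11 nuclei of the cortex-labelled than of the striatum-labelled libraries. Over all 4 libraries none of those tested passed between the classes. Lhx2, needed for cortex and hippocampus, was at 46.5, 49.3, 16.8 and 12.2 CPM in Agt/Slc6a11 nuclei and at 48.3, 43.3, 34.9 and 49.6 in Mfge8/Gldc nuclei. Emx2, which patterns the cortical area map, was at 28.6, 40.1, 6.18 and 4.97 against 39.8, 29.8, 34.9 and 18.6 CPM. In the cortex-labelled libraries the log2 difference between the classes was 0.06 ± 0.32 (SE) for Lhx2 (adjusted p = 0.99) and 0.02 ± 0.39 for Emx2 (adjusted p = 1.0; edgeR quasi-likelihood test with Benjamini-Hochberg adjustment), so a lower level of Agt/Slc6a11 nuclei was not detectable there. Emx2 was lower in the Agt/Slc6a11 nuclei of the striatum-labelled libraries (−2.28 ± 0.60, adjusted p = 0.00572), and Lhx2 did not pass there (−1.40 ± 0.46, adjusted p = 0.0615). The Emx2 value rested on few UMIs, 14 and 9 in Agt/Slc6a11 nuclei and 12 and 3 in Mfge8/Gldc nuclei. With a margin of 2 UMIs, Lhx2 rested on 4 and 4 UMIs in the cortex-labelled Agt/Slc6a11 nuclei, or 36.7 (95% Poisson interval 9.99 to 93.9) and 27.5 CPM (7.50 to 70.5), and Emx2 on 4 and 5 UMIs. Between the classes over all 4 libraries, 0 of the 6 tested genes of a telencephalon list of 12 passed, with a median of −0.45. Over all genes tested 0.25% were higher and 0.262% lower, so a count of 0 in so short a list says little.

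Several factors of diencephalon, midbrain and hindbrain were low in the cortex-labelled Agt/Slc6a11 nuclei. Otx2, a forebrain and midbrain factor, had 1, 5, 96 and 73 UMIs, or 3.58, 15.4, 42.4 and 40.3 CPM. Zic1, a zinc finger factor, was at 14.3, 33.9, 125 and 128 CPM, and Pax3, a dorsal factor, had 0, 0, 46 and 29 UMIs. Mfge8/Gldc nuclei of the striatum-labelled libraries also held Zic1 (134 and 168 CPM) and Otx2 (23.3 and 62.0 CPM). Tcf7l2 was at 282.5, 234, 493 and 538 CPM in Agt/Slc6a11 nuclei and at 325, 289, 466 and 465 in Mfge8/Gldc nuclei. None of 7 tested genes of a list of 27 such factors passed the test between the classes over all libraries. With 0.25% of all genes tested higher and 0.262% lower, that count of 0 says little. Fits within 1 region label rest on 2 libraries, 1 from each mouse pool, so their p-values say little about the spread between mouse pools. Within the striatum-labelled libraries 1.56% of all genes tested were higher in Agt/Slc6a11 nuclei and 2.14% lower. Of 13 tested factors 0 were higher and 2 lower there. These were Zic4 (33.1 and 22.1 against 99.0 and 55.8 CPM, −1.49 ± 0.32, adjusted p = 0.000177) and Meis2 (231 and 189 against 408 and 496 CPM, −1.03 ± 0.14, adjusted p = 4.57e-11), a homeobox factor that the telencephalon also uses. By these genes the name non-telencephalic fits poorly in the cortex-labelled libraries, where Lhx2 and Emx2 were not detectably lower than in Mfge8/Gldc nuclei.

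**Figure D2:**
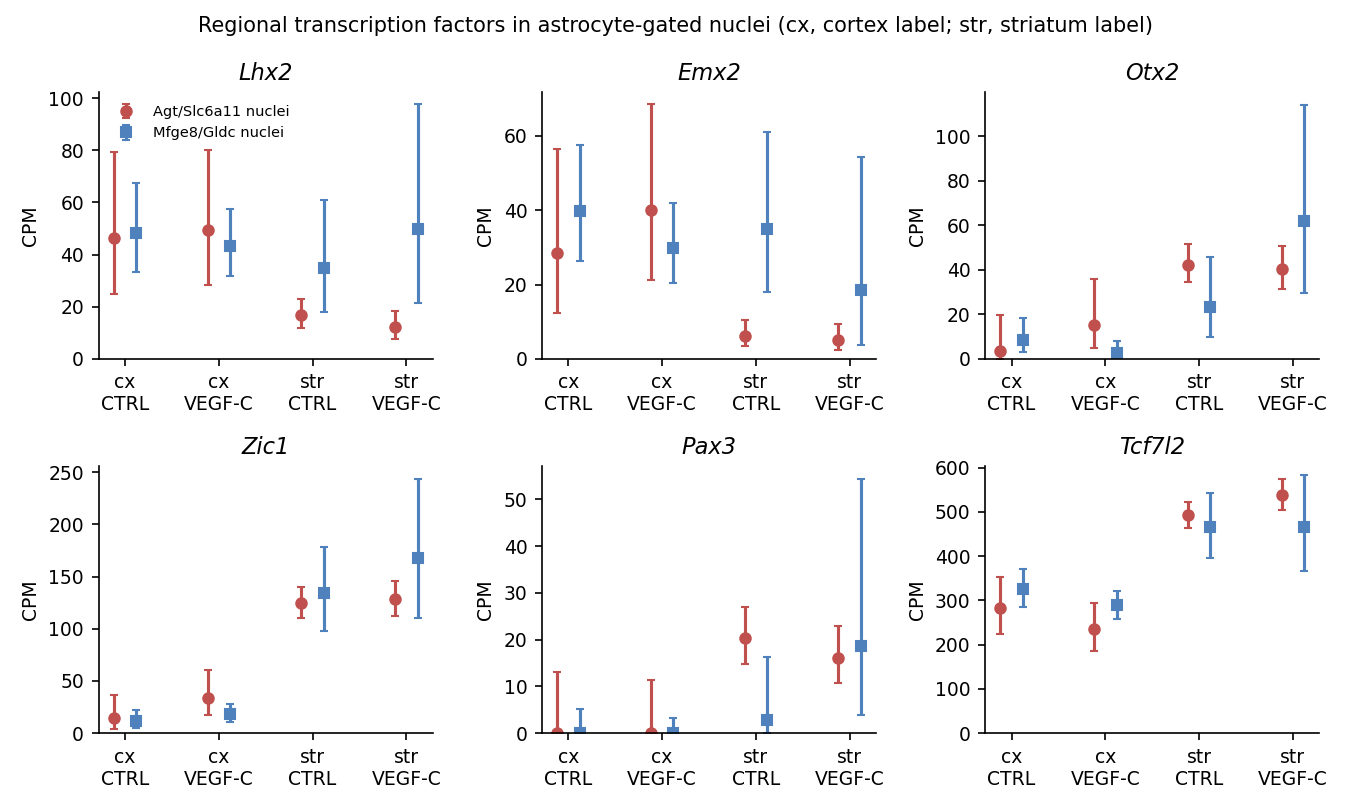
Level of 6 regional transcription factors (CPM, linear axis, 95% Poisson intervals) in Agt/Slc6a11 nuclei (red circles) and Mfge8/Gldc nuclei (blue squares) of each library. Lhx2 and Emx2 of the red class fall from the cortex to the striatum label, whereas Otx2, Zic1, Pax3 and Tcf7l2 are higher there.

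Genes that the selection did not use were then compared between Agt/Slc6a11 and Mfge8/Gldc nuclei of the same libraries. Agt/Slc6a11 nuclei were higher in Erbb4, Gria1, Kcnd2, Slc6a9 and Kcnj10, and lower in Lama3, Gfra1, Grm3 and Slco1c1. Of 8783 genes tested over 4 pairs of sums, 22 were higher (0.25%) and 23 lower (0.262%) at an adjusted p below 0.05. The p-values measure the spread between 4 libraries of 2 mouse pools. The counts were sensitive to single libraries, at 5 higher and 3 lower without cortex AAV-CTRL, 53 and 73 without cortex AAV-VEGF-C, 5 and 2 without striatum AAV-CTRL, and 31 and 14 without striatum AAV-VEGF-C. The 30 genes described next had the same direction in each of the 4 libraries, by the way they were chosen. None reversed under an alternative in which it could be tested, which follows largely from that choice. Without cortex AAV-CTRL 6 of the 30 stayed past the threshold, without cortex AAV-VEGF-C 30, without striatum AAV-CTRL 7 and without striatum AAV-VEGF-C 23. With a margin of 2 UMIs 20 stayed and 9 did not, and with no library block 0 stayed.

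Some of the higher genes encode receptors and channels. Erbb4, a neuregulin receptor, was at 325, 330, 1803 and 1633 CPM in Agt/Slc6a11 nuclei and at 195, 161, 451 and 459 in Mfge8/Gldc nuclei (log2 difference 1.46 ± 0.18, adjusted p = 0.00175). Gria1, an AMPA receptor subunit, was at 479, 342, 1280 and 1322 against 223, 227, 469 and 354 CPM (1.27 ± 0.17, adjusted p = 0.00194). Kcnd2, the A-type potassium channel Kv4.2, was at 787, 610, 2457 and 2249 against 487, 468, 734 and 707 CPM (1.14 ± 0.20, adjusted p = 0.0157). For each of these genes every library showed the higher value in Agt/Slc6a11 nuclei, by less in the cortex-labelled ones.

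Transporters and metabolic genes followed. Slc6a9, the glycine transporter GlyT1, was at 67.9, 43.1, 218 and 235 CPM against 19.9, 29.8, 55.3 and 68.2 (1.58 ± 0.22, adjusted p = 0.00282). Kcnj10, the inward rectifier Kir4.1 through which astrocytes take up potassium, was at 175, 154, 248 and 245 against 88.1, 90.3, 114 and 124 CPM (0.98 ± 0.14, adjusted p = 0.00282). Part of its count in cortex AAV-VEGF-C came from 2 Agt/Slc6a11 nuclei over 10000 UMIs. Without nuclei over that limit, Kcnj10 went from 49, 50, 562 and 444 UMIs to 45, 31, 553 and 435. Etnppl, an enzyme that breaks down phosphoethanolamine, was higher by 1.11 ± 0.20 (adjusted p = 0.0253).

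Secreted and surface proteins made up most of the rest. Itih3, which encodes a hyaluronan-binding heavy chain, was at 71.5, 89.4, 293 and 311 CPM against 32.7, 46.0, 58.2 and 99.3 (1.59 ± 0.21, adjusted p = 0.00189). Lrig1, a membrane protein that dampens receptor tyrosine kinases, was at 168, 157, 434 and 444.5 against 86.6, 85.8, 175 and 174 CPM (1.15 ± 0.14, adjusted p = 0.00125). Pdgfd, a growth factor, Chl1, an adhesion molecule, Car10, a carbonic anhydrase-related protein, and Reln, the matrix protein reelin, rose by 1.06, 0.99, 0.98 and 1.48. Reln rested partly on 1 nucleus, which held 27 of its 31 UMIs in cortex AAV-CTRL. Signalling genes Adcy8 (an adenylyl cyclase), Itpkb (an inositol phosphate kinase) and Arhgef28 (a guanine nucleotide exchange factor) rose by 1.24, 0.99 and 1.03. The homeobox gene Nkx6-2 had the highest value, 1.81 ± 0.38 (adjusted p = 0.0469), on 7, 8, 80 and 73 UMIs.

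The lowest values were those of Lama3 and Gfra1. Lama3, a laminin chain of basement membranes, was at 60.8, 43.1, 7.06 and 8.28 CPM in Agt/Slc6a11 nuclei and at 93.8, 93.0, 67.0 and 80.7 in Mfge8/Gldc nuclei (−1.91 ± 0.39, adjusted p = 0.0417). Gfra1, a GDNF co-receptor, was at 82.2, 117, 43.3 and 30.9 against 189, 125, 192 and 236 CPM (−1.61 ± 0.32, adjusted p = 0.036). Grm3, the metabotropic glutamate receptor mGluR3 of astrocytes, was at 1012, 1181, 503 and 428 against 1535, 1555, 1278 and 1036 CPM (−0.89 ± 0.15, adjusted p = 0.0149). All 4 libraries showed the lower value in Agt/Slc6a11 nuclei.

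The thyroid hormone transporter gene Slco1c1 was at 293, 200.4, 128 and 121.5 CPM against 491.5, 366.5, 309 and 248 (−0.97 ± 0.13, adjusted p = 0.00189). Mgll, the lipase that degrades the endocannabinoid 2-arachidonoylglycerol, fell by 0.95 and the ephrin receptor gene Ephb1 by 1.21. The sialyltransferase gene St6galnac5, the nicotinic receptor modulator Lypd6 and the proteoglycan gene Cspg5 fell by 1.47, 1.52 and 0.92. The remaining named genes were Fam13c, Scrg1, Tank (an adaptor of NF-kappaB signalling), Pigk (of GPI anchor attachment), Pde8b (a phosphodiesterase) and Tspan7 (a tetraspanin), which fell by 1.22, 0.94, 0.89, 0.88, 0.84 and 0.82.

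**Figure D3:**
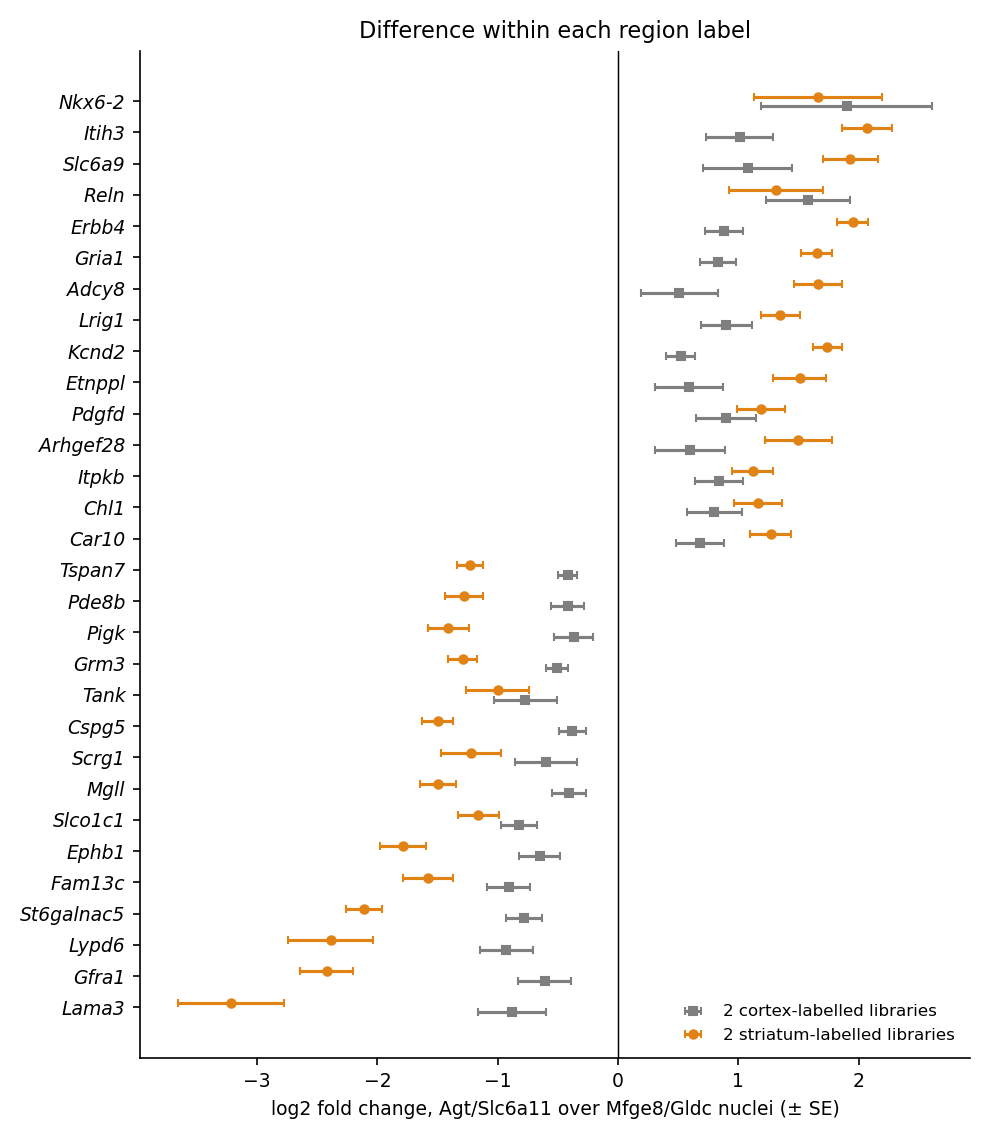
log2 fold change of Agt/Slc6a11 over Mfge8/Gldc nuclei (± SE), fitted within the 2 cortex-labelled (gray squares) and the 2 striatum-labelled libraries (orange circles). Shown are the 15 highest and 15 lowest genes over all libraries at an adjusted p below 0.05 (edgeR) with the same direction in every library. That each keeps its direction under both labels follows largely from this choice. For Lama3 and Gfra1 the orange value (−3.22 and −2.42) lies well below the gray one (−0.88 and −0.61).

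Lists of astrocyte genes moved in few of their members, beside 0.25% of all genes tested higher and 0.262% lower. Of 14 tested genes for potassium, water and ion transport, 3 were higher over all libraries (Trpm3, a cation channel gene, besides Kcnj10 and Kcnd2) and 0 lower, with a median log2 difference of 0.18 beside 0.01 over all genes tested. Of 16 tested transmitter uptake genes Slc6a9 alone passed (median −0.07). Of 26 matrix and synaptogenic genes Sparc, a secreted matrix regulator, and Reln passed (median −0.09). Trpm3 was at 2102, 1994, 5914 and 5607 CPM against 1619, 1526, 2236 and 1799, and Sparc at 200.2, 206.5, 542.5 and 592 against 152, 107, 212.5 and 310.2. Part of the Sparc count in cortex AAV-VEGF-C came from 2 Agt/Slc6a11 nuclei over 10000 UMIs. Without nuclei over that limit, Sparc went from 56, 67, 1229 and 1072 UMIs to 48, 39, 1213 and 1029. None of 26 tested genes of cholesterol and lipid metabolism, 15 of glucose and lactate, 11 of endfeet and coupling, 5 of reactive astrocytes and 3 of the angiotensin system passed, with medians of 0.05, 0.20, 0.15, −0.19 and 0.16. Agt itself is left out of these counts, as are all genes the selection used.

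Within the striatum-labelled libraries alone, 180 of 11516 genes were higher (1.56%) and 246 lower (2.14%). Uptake genes split there: Slc7a10, an exchanger of D-serine and neutral amino acids, was at 345 and 354.5 CPM in Agt/Slc6a11 nuclei and at 183 and 180 in Mfge8/Gldc nuclei (0.96 ± 0.16, adjusted p = 5.43e-07). Slc1a2, the main glutamate transporter of astrocytes, was at 3131 and 2898 against 5899 and 5360 CPM (−0.88 ± 0.10, adjusted p = 4.9e-16). Aldh1a1, which makes retinoic acid, was at 457 and 371 against 72.8 and 124 CPM (2.25 ± 0.19, adjusted p = 7.06e-29). Such small p-values come from 2 libraries, 1 from each mouse pool, and say little about the spread between mouse pools. The hedgehog receptor and target gene Ptch1 rose by 1.07, and the neurotrophin and VEGF receptor genes Ntrk3 and Nrp1 by 0.97 and 0.89. Dkk3, a Wnt regulator, fell by 2.23, and Crym, which binds thyroid hormone in the cytosol, by 2.72. The synaptogenic Thbs4 fell by 3.65, on only 6 and 1 UMIs in Agt/Slc6a11 nuclei.

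Some of the genes lower there mark other cells lining fluid spaces. Of 7 tested tanycyte markers (tanycytes line the third ventricle) 4 were lower and 1 higher, and Gpr50, a tanycyte gene, was at 7.06 and 17.7 CPM against 64.0 and 49.6. The fibroblast collagen gene Col1a1 was at 33.5 and 20.4 against 195 and 49.6 CPM. The Mfge8/Gldc nuclei of these libraries numbered only 155 and 59, and 1 nucleus in each library held 7.10% and 7.25% of their UMIs. The part of tanycytes or fibroblasts, or of those top nuclei, in the Mfge8/Gldc sums was not tested.

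Within the cortex-labelled libraries 108 of 8926 genes were higher (1.21%) and 23 lower (0.258%). Of 7 tested ependymal markers 5 were among the higher ones. Dnah12, a dynein gene of motile cilia, had 79 and 121 UMIs in Agt/Slc6a11 nuclei there, which came from 4 and 3 nuclei. Without the nuclei marked by ependymal genes, 26 genes were higher and 12 lower. With all nuclei kept, Gfap, the intermediate filament of fibrous astrocytes, was at 247 and 188 against 78.1 and 115 CPM (1.12 ± 0.20, adjusted p = 6.58e-05), whereas in the striatum-labelled libraries it was at 174 and 150 against 163 and 99.3 (0.27 ± 0.19, adjusted p = 0.698). The interaction of Gfap with region label did not pass (−0.86 ± 0.30, adjusted p = 0.209).

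Whether a difference between the classes itself depended on the region label was tested with an interaction term. It passed for 39 of 8783 genes with a more positive difference under the striatum label (0.444%) and 132 with a more negative one (1.5%). Without ependymal-marked nuclei these were 28 and 63 genes. Trpm3 and Kcnd2 differed by 1.16 ± 0.11 (adjusted p = 8.54e-06) and 1.20 ± 0.14 (adjusted p = 8.87e-05) more under the striatum label. Slc7a10 and Gabbr2, a GABA B receptor subunit gene, differed by 1.19 ± 0.22 (adjusted p = 0.00395) and 1.13 ± 0.19 (adjusted p = 0.00206).

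Agt/Slc6a11 nuclei of the striatum-labelled libraries were next compared with those of the cortex-labelled libraries, 2 sums against 2. Of 11541 genes, 342 were higher (2.96%) and 579 lower (5.02%) under the striatum label. Without cortex AAV-CTRL the counts were 145 and 305, without cortex AAV-VEGF-C 91 and 242, and without striatum AAV-CTRL 282 and 362. Of 7 tested telencephalon factors 5 were lower (among them Lhx2, Emx2, Lmo3 and Tbr1; median −1.71 beside 0.01 over all genes) and 0 higher. Of 13 tested factors of other brain territories 6 were higher (Otx2, Zic1, Irx2, Lhx9, Pax3 and Tcf7l2) and 2 lower (Pax6 and Meis2), beside a background of 2.96% and 5.02%. Pax3 and Lhx9 had 0 UMIs in both cortex-labelled sums and Irx2 had 0 and 1, so they could pass the filter on low values only through the striatum-labelled sums, and no median is given for the list. Lhx2 differed by −1.71 ± 0.36 (adjusted p = 0.00526) and Zic1 by 2.34 ± 0.31 (adjusted p = 6.2e-05). Whole libraries moved with them, with Lhx2 at 20.3, 19.6, 12.2 and 10.2 CPM and Zic1 at 12.9, 13.9, 101 and 111 CPM over all nuclei.

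Astrocyte transport genes differed in the same contrast. Over all 11541 genes tested 2.96% were higher and 5.02% lower, with a median of 0.01. Of 14 tested genes for potassium, water and ion transport 5 were higher (Trpm3, Kcnd2, Slc4a4, Atp1b2 and Kcnj10) and 1 lower (Kcnk2), with a median of 0.48. Slc4a4, the sodium bicarbonate cotransporter, was at 1620, 1369, 2768 and 2634 CPM in Agt/Slc6a11 nuclei (0.85 ± 0.12, adjusted p = 0.000165). Of 18 uptake genes 4 were higher (among them Slc6a9, Slc7a10 and Slc7a11, the cystine exchanger) and 2 lower (Slc1a2 and Slc38a3). Slc1a2 was at 5592, 5903, 3131 and 2898 CPM (−0.94 ± 0.11, adjusted p = 2.33e-05). Fgfr3 and Ednrb, receptors for fibroblast growth factor and endothelin, were higher by 0.54 and 0.72, and Mertk, a phagocytic receptor, was lower (840.2, 804.5, 382 and 296 CPM, −1.28 ± 0.14, adjusted p = 1.39e-05). Thbs4 had 10, 10, 6 and 1 UMIs.

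Several of the genes with the most extreme values are known from neurons. The 10 highest had 0 UMIs in both cortex-labelled sums. Among them were Pmch and Oxt, hypothalamic neuropeptide genes, with 114 and 334 and with 220 and 125 UMIs under the striatum label, and Slc6a3, the dopamine transporter, with 68 and 36. With no UMI on the cortex side, fitted sizes depend on the prior count and are not given. Mfge8/Gldc nuclei of the same libraries held Pmch at 34.9 and 86.9 CPM and Oxt at 87.3 and 68.2, against 57.6 and 134 and against 126.5 and 83.2 over whole libraries. The lowest included Neurod6, Nrgn and Neurod2, genes of cortical excitatory neurons. Nrgn was at 1141, 1107, 121 and 98.3 CPM in Agt/Slc6a11 nuclei, 1126, 1285, 116.5 and 74.45 in Mfge8/Gldc nuclei, and 819, 906, 100.2 and 79.2 over whole libraries. The part of free RNA in these differences was not tested.

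Marker lists of other cells gave further values beside this contrast. All 7 tested ependymal markers were lower under the striatum label, beside 5.02% of all genes tested. Their summed level was 872, 1316, 237 and 374 CPM in Agt/Slc6a11 nuclei. Under the cortex label only 4 of 121 and 3 of 136 of these nuclei had at least 10 UMIs of the markers. Without nuclei over 10000 UMIs, the marker Tmem212 went from 65, 148, 114 and 168 UMIs to 36, 16, 56 and 80. In cortex AAV-VEGF-C most Tmem212 UMIs thus lay in 2 nuclei. Of 7 oligodendrocyte markers 5 were higher, among them the myelin gene Mbp (111, 136, 237 and 240 CPM), and the list summed to 1155, 1033, 2322 and 2487 CPM against 1571, 1571, 3676 and 4002 over whole libraries. The immediate early genes Egr1, Egr3 and Arc were lower, Egr1 at 261, 256, 45.9 and 39.8 CPM, with 312.5, 256, 34.9 and 62.0 in Mfge8/Gldc nuclei. Of 5 neuron markers 2 were higher and 1 lower, and microglia, endothelial and oligodendrocyte precursor markers had 0 genes past the test among 4, 5 and 2 tested. Their part in the result was not tested.

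Between AAV labels, each region label gave 1 library against 1 from pooled mice, so no test was run and differences describe these libraries. The share of Agt/Slc6a11 nuclei among all nuclei had a log2 ratio of AAV-VEGF-C over AAV-CTRL of −0.08 (95% interval −0.44 to 0.29) under the cortex label and −0.06 (−0.20 to 0.07) under the striatum label. After thinning, the latter was −0.38 (−0.60 to −0.16). The odds of Agt/Slc6a11 to Mfge8/Gldc nuclei gave −0.49 (−0.91 to −0.07) under the cortex and 0.89 (0.42 to 1.37) under the striatum label. After thinning, the cortex value was −0.36 (−0.97 to 0.25), an interval that includes 0. Vegfc, the delivered gene, had 4, 1, 15 and 3 UMIs in these nuclei. Whether transcripts of the vector were counted as Vegfc is not given in the sources used here.

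Genes of neurotrophin and VEGF signalling, a list chosen for the treatment, were compared in Agt/Slc6a11 nuclei where at least 50 UMIs were counted. Over all genes, those past 2-fold with at least 50 UMIs were 31 of 2759 higher (1.12%) and 20 lower (0.725%) under the cortex label. Under the striatum label they were 33 of 10337 higher (0.319%) and 41 lower (0.397%). None of 7 and 14 measured genes of the list was among them, with medians of −0.28 and −0.09 beside −0.01 and 0.01 over all genes. Counts of 0 in lists this short are near those shares and say little about the list. Ntrk2, the BDNF receptor TrkB, had 359, 343, 2661 and 2229 UMIs, with log2 ratios of −0.28 (−0.50 to −0.06) and 0.07 (−0.01 to 0.15). Vegfa had 24, 44, 238 and 172 UMIs, with ratios of 0.66 (−0.09 to 1.44) and −0.145 (−0.437 to 0.144). Bdnf, with 10, 10, 61 and 47 UMIs, gave −0.05 (−0.63 to 0.52) under the striatum label. The VEGF-C receptor gene Flt4 had 0, 0, 5 and 3 UMIs, too few to compare.

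**Figure D4:**
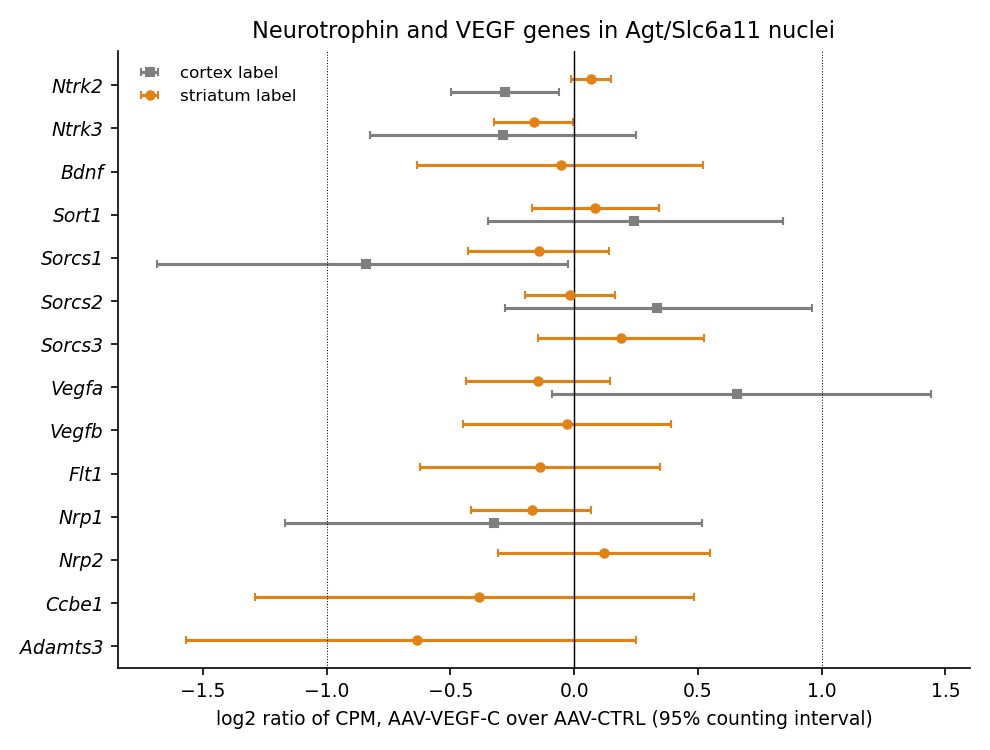
log2 ratio of CPM in AAV-VEGF-C over AAV-CTRL for neurotrophin and VEGF genes with at least 50 UMIs in Agt/Slc6a11 nuclei, with 95% counting intervals, under the cortex (gray squares) and striatum label (orange circles); dotted lines mark 2-fold. No point lies beyond 2-fold, and the intervals of the cortex label are the wider ones.

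Of 2757 genes measured under both region labels, 0 were past 2-fold in the same direction in both. Under the cortex label the highest ratios belonged to hemoglobin genes and Ptgds, a prostaglandin synthase gene of meninges. Hba-a1 had 5 and 83 UMIs, but 65 of the 83 lay in 1 nucleus, which was also the top nucleus of 4 of the 5 leading genes and had 2262 UMIs in all. Ptgds had 43 and 529 UMIs, 441 of them in 1 nucleus and 88 in all others. The lowest ratios under the cortex label were those of Slc8a1, a sodium calcium exchanger (49 and 18 UMIs, −1.66, −2.53 to −0.85), and Spon1, a matrix protein (51 and 23 UMIs, −1.36, −2.14 to −0.63). Under the striatum label Spon1 was at 0.15 (0.00 to 0.29) and Slc8a1 at −0.45 (−0.72 to −0.19).

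Under the striatum label the lowest ratios belonged to genes of nasal epithelium. Bpifb4 and Bpifb6 had 80 and 51 UMIs in AAV-CTRL and 0 in AAV-VEGF-C, at least 21.3-fold and 13.6-fold lower against a floor of 3 UMIs. Scgb1c1 had 255 and 3 UMIs, a log2 ratio of −6.09 (−8.37 to −4.52), beside −5.29 over all nuclei of these libraries. Pmch had 114 and 334 UMIs, of which 144 of the 334 lay in 1 nucleus, and Frzb, a Wnt antagonist, had 9 and 43, with 34 in 1 nucleus. Among the genes of the lists, those past 2-fold included Slc8a1 under the cortex label, and under the striatum label the collagen genes Col23a1 (121 and 270 UMIs, 1.48, 1.17 to 1.80) and Col25a1 (148 and 293, 1.31, 1.02 to 1.60), both on the tanycyte list, of which 4 genes were measured. In AAV-VEGF-C, 132 and 161 of these UMIs lay in 1 nucleus per gene, and without nuclei over 10000 UMIs the ratios of Col23a1 and Col25a1 were 0.65 and 0.21. Under the striatum label 0 of 14 ion transport, 17 uptake, 12 endfoot, 26 lipid and 10 reactive genes passed 2-fold, with medians of −0.10, −0.03, 0.01, 0.04 and −0.02. Over all genes measured there 0.319% were higher and 0.397% lower, so these counts of 0 say little.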

How the data were processed

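The authors isolated nuclei, prepared libraries with 10x Genomics 3′ chemistry and deposited UMI counts per gene and nucleus, which are whole-number counts with no normalization. Per the file headers these came from Cell Ranger 5.0.1, while the submitters' notes name 5.1.1, and the build given is mm10. Neither the gene annotation nor the treatment of intronic reads is given in the sources used here. Each of the 4 groups is 1 library of pooled mice.

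All nuclei were read, and the selection was applied to raw counts of 19 genes, which stay out of every test. The nuclei, gene lists and named genes were chosen with earlier results of these data known. Doublets were called with Scrublet (scanpy 1.11.5, expected rate 8%) and kept. UMIs were summed per library and class, filtered with filterByExpr, scaled with TMM and tested with edgeR 4.0.16 (quasi-likelihood, Benjamini-Hochberg over all genes tested). The comparison of classes had library as a block. The comparison of region labels had none. DESeq2 1.42.0 was an alternative. Named genes were the 15 highest and 15 lowest between classes and the 10 highest and 10 lowest between region labels, at an adjusted p below 0.05 with at least 50 UMIs a symbol other than a predicted-gene name and the same direction in every library. The fits within region labels, and genes named from them, were added after seeing the data. For AAV labels the 5 most extreme ratios per direction, a display chosen later, and all neurotrophin and VEGF genes were taken. Genes of other lists that passed are named as examples. Between AAV labels, UMI ratios carry exact conditional binomial intervals at 95%. Scripts were tested on simulated data. Of 31053 gene IDs, 31011 were found in the GENCODE annotation of GRCm38. Some genes of the lists are counted but not reported here by name.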

Additional observations from a re-analysis of the deposited data

Results flagged for a closer look

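For 14 of the 30 genes named between Agt/Slc6a11 and Mfge8/Gldc nuclei, the difference was larger under the striatum than under the cortex label by the interaction test (edgeR, adjusted p below 0.05). Over all 8783 genes tested, 0.444% had a more positive and 1.5% a more negative difference under the striatum label. The 30 genes were picked from the same sums for extreme differences, so their count is not a neutral share. Among the higher genes the difference between labels was 1.06 for Erbb4, 0.81 for Gria1 and 1.20 for Kcnd2 on the log2 scale. Among the lower genes it was −2.35 for Lama3, −1.83 for Gfra1, −1.48 for Lypd6, −1.34 for St6galnac5, −1.15 for Ephb1, −1.11 for Mgll, −1.13 for Cspg5, −0.79 for Grm3, −1.05 for Pigk, −0.87 for Pde8b and −0.83 for Tspan7. Beside this stand the margins by which the nuclei were selected, a median of 1 UMI in both cortex-labelled libraries and of 4 and 5 in the striatum-labelled ones. The part of that margin in the gene differences was not tested.

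The odds of Agt/Slc6a11 to Mfge8/Gldc nuclei went opposite ways between AAV labels, with a log2 ratio of −0.49 under the cortex and 0.89 under the striatum label. Under the cortex label the interval included 0 when thinned (−0.36, −0.97 to 0.25) and with a margin of 2 UMIs (−0.52, −1.18 to 0.16). Under the striatum label these settings gave 0.84 (0.23 to 1.48) and 0.77 (0.12 to 1.46). Each is 1 library against 1, and the difference was not tested.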

How the results depend on the processing

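The comparison of classes is paired by library. Region labels are paired by mouse pool, and with AAV label as a block 494 genes were higher and 728 lower, with all 20 named genes still past the threshold. With a margin of 2 UMIs 12 of the 20 stayed past it and 7 did not. Of the 30 genes named between the classes, 6 stayed past it without cortex AAV-CTRL, 7 without striatum AAV-CTRL and 0 with no library block. No called result changed direction under an alternative that could test it. For named genes a shared direction was part of the choice. The log2 ratios of the share of all nuclei between AAV labels, which carry no call, changed sign, under the cortex label to 0.04 when thinned. The share of Agt/Slc6a11 nuclei with a margin of 2 UMIs was 20.55%, 15.32%, 92.63% and 95.56% in the 4 libraries, with an astrocyte sum of at least 10 it was 78.3% and 86.53% in the striatum-labelled ones, and thinned to 1000 UMIs 81.24% and 88.56%. The log2 ratio of AAV labels in the share of all nuclei under the striatum label was 0.21 with a sum of at least 10 and −0.38 thinned. Between the classes, the higher and lower genes numbered 92 and 85 with no filter and 0 and 0 with no library block (edgeR; 647 genes at an unadjusted p below 0.05), and 12 were higher with a sum of at least 10. Leaving out 1 library gave 5 to 53 higher and 2 to 73 lower. Alternatives chosen after seeing the data gave 42 and 45 without ependymal-marked nuclei, 36 higher without nuclei over 10000 UMIs, 180 and 246 within the striatum label (164 and 190 without ependymal-marked nuclei) and 108 higher within the cortex label (12 lower without ependymal-marked nuclei). The interaction then left 63 genes lower. Between region labels the counts were 86 and 181 with a sum of at least 10, 127 and 322 with a margin of 2 UMIs, 126 and 301 by DESeq2, 537 higher with no filter, and 91 to 289 higher and 242 to 395 lower leaving out 1 library. Genes past 2-fold between AAV labels, at 100 UMIs or more, were 3 higher and 6 lower under the cortex and 12 and 6 under the striatum label, where 26 were lower without called doublets. Except where an alternative leaves out libraries or nuclei or tests other genes, the cause was not tested. Depth limits most the cortex-labelled sums of Agt/Slc6a11 nuclei (279687 and 324417 UMIs) and the striatum-labelled sums of Mfge8/Gldc nuclei (343471 and 161181).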
